A study of Mus musculus with 7 samples.

Results

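Pancreatic islets hold together, and act together, through a small set of membrane proteins, and 9 of their genes are described here. They are the connexin genes Gjd2, Gja1 and Gjc1, the cadherin genes Cdh1 and Cdh2, the neural cell adhesion molecule gene Ncam1, the Eph receptor genes Epha5 and Epha7 and the ephrin gene Efna5. They were chosen by name for these roles and, like the gene lists used below, with earlier results of these data known. All 9 were among the 21899 genes listed in the files. Averaged over the libraries, each reached the minimum of 10 counts set for comparing them.

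Islet RNA was sequenced from second-generation (F2) C57BL/6J males descended through F1 males from dams injected under the skin in late pregnancy with dihydrotestosterone (AE-F2) or with the benzyl benzoate and corn oil vehicle alone (Ctrl-F2). F1 males of both lines were mated with unrelated wild-type females, so that the F2 males descended from the injected dams through their fathers only, and all animals were wild-type and ate standard chow. The islets were freed with collagenase and picked by hand, and the age of the males at islet collection and the number of animals behind a library are not given in the sources used here. Of 7 labelled libraries, 3 Ctrl-F2 (labelled control) and 4 AE-F2 (labelled hyperandrogenism), those analysed here are Ctrl-F2 replicate 1 and AE-F2 replicate 4, and the other 5 were not analysed here. With 1 library on each side, no difference below has a replicate check and no p-value is given.

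As background, a gap junction is a channel made of connexins that lets ions and small molecules pass straight from one cell to its neighbour. Connexin 36, the product of Gjd2, couples β-cells electrically and keeps their calcium oscillations and insulin pulses in step. E-cadherin (Cdh1) and N-cadherin (Cdh2) bind like molecules on the next cell and are anchored to actin through catenins. EphA receptors and ephrin-A ligands sit on facing β-cells, where signalling into the receptor cell is known to restrain insulin secretion and signalling into the ligand cell to promote it.

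The bases upstream of Gjd2 and Gja1 are shown because Gjd2 and Gja1 were the highest and the next highest of the 3 connexin genes by level, with a wide gap between them. The windows are the 250 bases before the RefSeq transcription start (GRCm38.p6), written 5′ to 3′ along the gene, with capitals for matches to the motifs searched.
Gjd2, chr2:114013620-114013869, minus strand: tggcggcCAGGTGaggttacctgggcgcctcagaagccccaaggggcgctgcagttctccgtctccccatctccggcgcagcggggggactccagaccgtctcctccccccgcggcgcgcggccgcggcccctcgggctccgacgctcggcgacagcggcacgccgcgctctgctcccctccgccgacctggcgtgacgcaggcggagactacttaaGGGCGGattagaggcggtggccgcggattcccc
Gja1, chr10:56377050-56377299, plus strand: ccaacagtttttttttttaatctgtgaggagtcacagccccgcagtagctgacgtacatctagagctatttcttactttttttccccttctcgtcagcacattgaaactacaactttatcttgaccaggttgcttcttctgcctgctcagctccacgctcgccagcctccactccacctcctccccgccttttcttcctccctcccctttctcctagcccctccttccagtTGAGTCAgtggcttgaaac

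The motifs searched on both strands were the GC box, spelled GGGCGG, the TATA box, spelled TATAAA, and the CAAT box, spelled CCAAT. The search also took in the cyclic AMP response element, spelled TGACGTCA, the AP-1 element, spelled TGAGTCA, and an E-box, spelled CACCTG. No spelling overlaps another in a printed window. The Gjd2 window was 74.0% GC with 33 CG dinucleotides, and 96.0% of the 32851 windows of this length had fewer CG dinucleotides. It held GGGCGG at -33 from the start, a motif in 32.7% of all windows, and CACCTG at -243, read there as its reverse complement, a motif in 17.2%. By contrast the Gja1 window was 50% GC with 6 CG dinucleotides, close to the median window (52.4% GC and 6 CG dinucleotides). It held TGAGTCA at -19, a motif found in 4.46% of windows. These letters are a description of the sequence and show no binding. RefSeq windows were matched for 5 of the 9 genes, and no file used here holds a measurement at these windows in islets.

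The Ctrl-F2 library held 16285888 counts and the AE-F2 library 21278513, which is 1.31 times as many, so a gene at one level was counted more precisely in AE-F2. Levels are given as CPM, the count scaled to a common library total, with a 95% exact Poisson interval and, wherever genes are compared with each other, as CPM per kb of the longest annotated transcript. A ratio is the log2 of AE-F2 over Ctrl-F2 after TMM scaling and the addition of 0.5 counts, with a 95% interval from the Clopper-Pearson limits of the gene's AE-F2 share. All intervals cover counting error only, since PCR copies are not independent molecules, and leave out the spread between animals. The islet label held in both libraries, with Ins1 and Ins2 taking 17.7% of Ctrl-F2 and 17.5% of AE-F2 counts. Markers of other cell types differed between the libraries. For scale, 6.04% of all genes averaging 10 counts or more were at least 1.5-fold higher in AE-F2. Among the same genes, 13.4% of intervals lay above equality and 13.4% below. Acinar genes summed to 2179 CPM in Ctrl-F2 and 1619 CPM in AE-F2, with 9 of 9 compared genes lower in AE-F2, and mesenchymal genes summed to 263 and 321 CPM, with 6 of 10 at least 1.5-fold higher in AE-F2. B cell genes summed to 11.5 and 38.1 CPM, with all 6 intervals above equality and Cr2 at 0 in Ctrl-F2, and α-cell genes summed to 17735 and 23861 CPM, with Gcg carrying most of the sum. Duct genes summed to 318 and 364 CPM, with 3 of 6 compared intervals above equality and 0 below, and macrophage genes to 70.2 and 86.3 CPM, with 1 of 6 above and 1 below. All 4 δ-cell intervals included equality, at a median log2 ratio of 0.03, and Ppy of PP cells had a ratio of -0.02.

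The 9 genes spanned a wide range of levels, and Gjd2, Cdh1 and Cdh2 stood above the rest in both libraries. Per kb, Gjd2 and Cdh1 were higher than 97.3% and 97.2% of the 13627 genes compared in Ctrl-F2, and Cdh2 than 94%. Ncam1 was higher than 65.5% of the compared genes, while the remaining 5 lay in the lower part of the distribution, from 30.2% for Efna5 down to 1.37% for Epha5. In Ctrl-F2 the order from the top was Gjd2, Cdh1, Cdh2, Ncam1, Efna5, Gja1, Epha7, Gjc1 and Epha5. In AE-F2 the neighbours Gjd2 and Cdh1 changed places, as did Efna5 and Gja1, and the intervals of the per-kb levels overlapped within both of these pairs in both libraries. All other neighbours in the order had intervals that did not overlap.

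**Figure D1:**
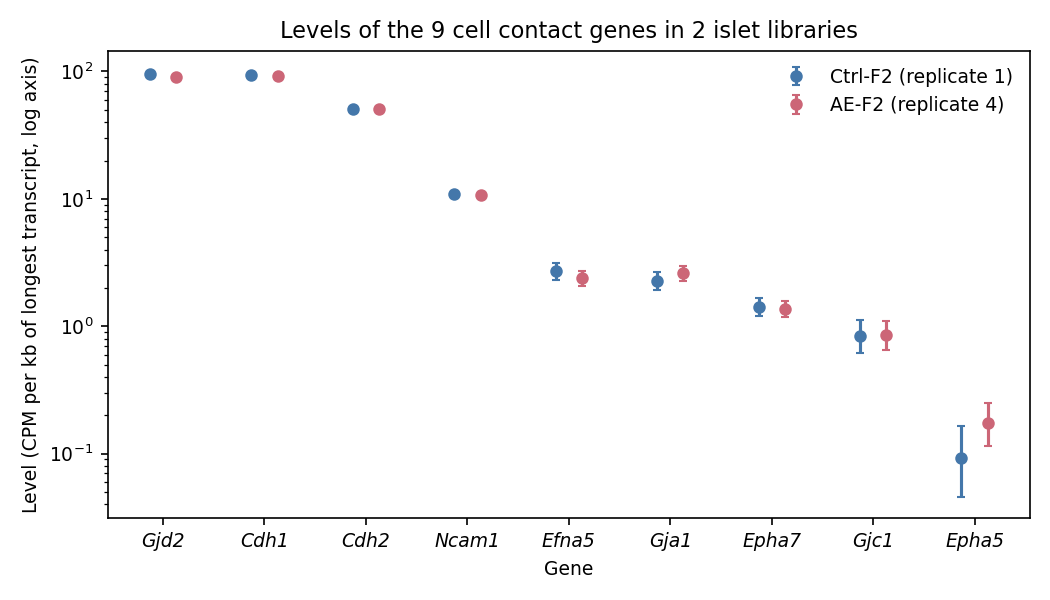
Level of each gene in CPM per kb of longest transcript (log axis) in the Ctrl-F2 library (blue) and the AE-F2 library (red), with 95% exact Poisson intervals. Gjd2 and Cdh1 sit near 90 to 100 CPM per kb and Epha5 at 0.0922 and 0.173 CPM per kb, and the points of the 2 libraries lie close together for every gene except Epha5.

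Between the libraries, 8 of the 9 genes differed by less than 1.5-fold and 1, Epha5, was at least 1.5-fold higher in AE-F2. Among all genes compared, 6.04% were at least 1.5-fold higher and 2.19% at least 1.5-fold lower, and none of the 9 was lower by that much. The median log2 ratio of the 9 genes was -0.01 and that of all genes compared 0.00, with 3 of the 9 above 0 and 6 below. Counting intervals lay wholly above equality for 0 of the 9 genes and wholly below it for 1, Gjd2, while the share among all genes was 13.4% above and 13.4% below. Summed, the 9 genes gave 1043 CPM in Ctrl-F2 and 1017 CPM in AE-F2, a log2 ratio of -0.03 (interval -0.061 to -0.003). Gjd2, Cdh1 and Cdh2 held most of these counts, and among them only Gjd2 had an interval off equality. The upper end for the sum lay close to equality, and the sum was not repeated under other scalings. In whole islets, fewer cells of a type and less RNA per cell cannot be told apart.

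**Figure D2:**
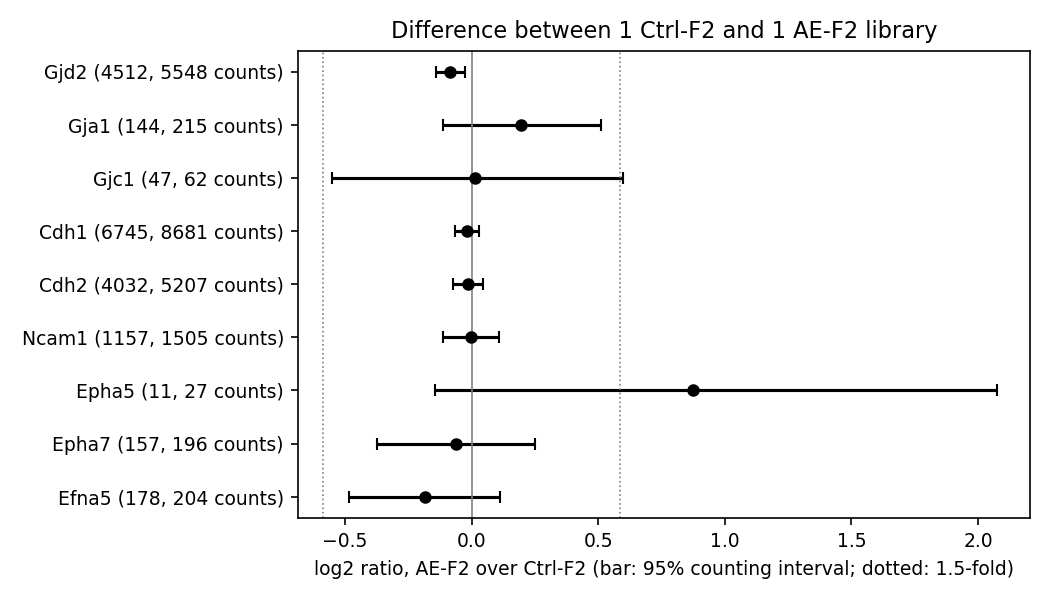
The log2 ratio of AE-F2 over Ctrl-F2 for each gene with its 95% counting interval, the counts of both libraries beside the name (Ctrl-F2 first), equality as a solid line and 1.5-fold as dotted lines. The interval of Gjd2 lies just below equality, that of Epha5 reaches from -0.14 to 2.07, and the remaining 7 intervals include equality.

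Gjd2 encodes connexin 36, the channel protein of β-cell gap junctions (ENSMUSG00000068615, GENCODE M21 on GRCm38, chr2:114009601-114013619, minus strand). Its single annotated transcript has 2 exons and 2879 bases. Gjd2 had 4512 counts in Ctrl-F2 and 5548 in AE-F2, or 277 CPM (269 to 285) and 261 CPM (254 to 268). The AE-F2 level was the lower one, and the intervals did not overlap. Its log2 ratio was -0.08 (-0.14 to -0.03), a fold of 0.944 (0.907 to 0.982). A difference of this size was common among well counted genes, since 24.9% of the 3471 genes averaging 1000 counts or more had intervals below equality and 16.3% above it. Of the 4 described here in that range, Gjd2, Cdh1, Cdh2 and Ncam1, 1 was below and 0 were above. A further scaling, to β-cell markers, moves every gene by one and the same amount. Against the summed counts of 7 β-cell markers (Slc2a2, Pdx1, Mafa, Nkx6-1, Slc30a8, G6pc2 and Ucn3), which had a log2 ratio of -0.12 (-0.13 to -0.11), the ratio of Gjd2 was 0.04 (-0.02 to 0.09), and that of the median gene of all those compared was 0.12. The sum of all 10 β-cell markers, most of it from Ins1 and Ins2, stood at 203445 CPM in Ctrl-F2 and 203260 CPM in AE-F2. Its log2 ratio was 0.00, while the median over the 10 was -0.10. The 7 markers, without Ins1, Ins2 and Iapp, were a choice made after seeing the data. The turn of Gjd2 depends on which markers are taken and how they are combined. Of the 10, 8 had intervals below equality and 2, Ins1 and Iapp, above it, and their part in the Gjd2 value was not tested.

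Gja1 encodes connexin 43, the most widely expressed connexin, found in fibroblasts, smooth muscle and glia among other cells (ENSMUSG00000050953, chr10:56377330-56402513, plus strand, 8 annotated transcripts). Gja1 had 144 counts in Ctrl-F2 and 215 in AE-F2, or 8.84 CPM (7.46 to 10.4) and 10.1 CPM (8.80 to 11.5). These intervals overlapped, and the log2 ratio was 0.19 (-0.11 to 0.51). Of 10 mesenchymal markers, 7 had intervals above equality, 1 below and 2 including it, with a median log2 ratio of 0.97, and their part in the Gja1 value was not tested. Col1a1 had 102 and 313 counts and Col1a2 228 and 577 counts, both collagen genes of fibroblast-like cells, while the pericyte genes Rgs5 and Pdgfrb had log2 ratios of 0.08 and 0.05. Acta2, of smooth muscle, was the marker with an interval below equality, at 200 and 210 counts and a log2 ratio of -0.31 (-0.60 to -0.02). Rgs5, Pdgfrb and Acta2 were chosen for mention after their values were seen.

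Gjc1 encodes connexin 45, known from the pacemaker tissue of the heart and from vascular smooth muscle (ENSMUSG00000034520, chr11:102799579-102819700, minus strand, 5 annotated transcripts). Gjc1 had 47 counts in Ctrl-F2 and 62 in AE-F2, or 2.89 CPM (2.12 to 3.84) and 2.91 CPM (2.23 to 3.74). The levels nearly coincided, with a log2 ratio of 0.01 (-0.55 to 0.60), so that a difference of up to about 1.5-fold either way was not detectable at this depth.

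Within the connexin family, Gjd2 was far ahead of every other gene. Of the summed CPM per kb of 20 connexin genes, Gjd2 gave 94.2% in Ctrl-F2 and 92.2% in AE-F2. Gja1 gave 2.22% and 2.65%, and Gjc1 0.827% and 0.869%. Per kb, Gjd2 exceeded Gja1 by 42.3 times (35.9 to 50.3) in Ctrl-F2 and 34.9 times (30.4 to 40.1) in AE-F2, and these intervals overlapped. Gja1 in turn exceeded Gjc1 by 2.69 times (1.92 to 3.82) and 3.04 times (2.28 to 4.11).

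Most other connexins were scarce. Of the 20, 7 were at 0 in both libraries and 15 fell under the minimum mean of 10 counts. Per kb, Gja4 stood at 1.86 CPM in Ctrl-F2, below Gja1 at 2.27, and at 2.98 CPM in AE-F2, above Gja1 at 2.60. It exceeded Gjc1, at 0.846 and 0.854 CPM per kb, in both libraries. Gja4, the connexin 37 gene of arterial endothelium, had 51 counts in Ctrl-F2 and 107 in AE-F2 and a log2 ratio of 0.68 (0.19 to 1.2). It was the only connexin at least 1.5-fold higher, as were 23.5% of all genes averaging 10 to under 100 counts. Gja5, the connexin 40 gene of that endothelium, had 30 and 36 counts. Gjd3 had 3 and 4 counts and Gjb1 2 and 7, too few to compare. The 8 endothelial markers had a median log2 ratio of -0.04, with 1 interval above and 1 below equality, and Pecam1 and Cdh5, the first of that list, had -0.03 and -0.08. The pannexins form related channels to the outside of the cell. Panx2 had 146 and 184 counts and Panx1 55 and 73, with both intervals including equality, and Panx3 was at 0 in both libraries.

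**Figure D3:**
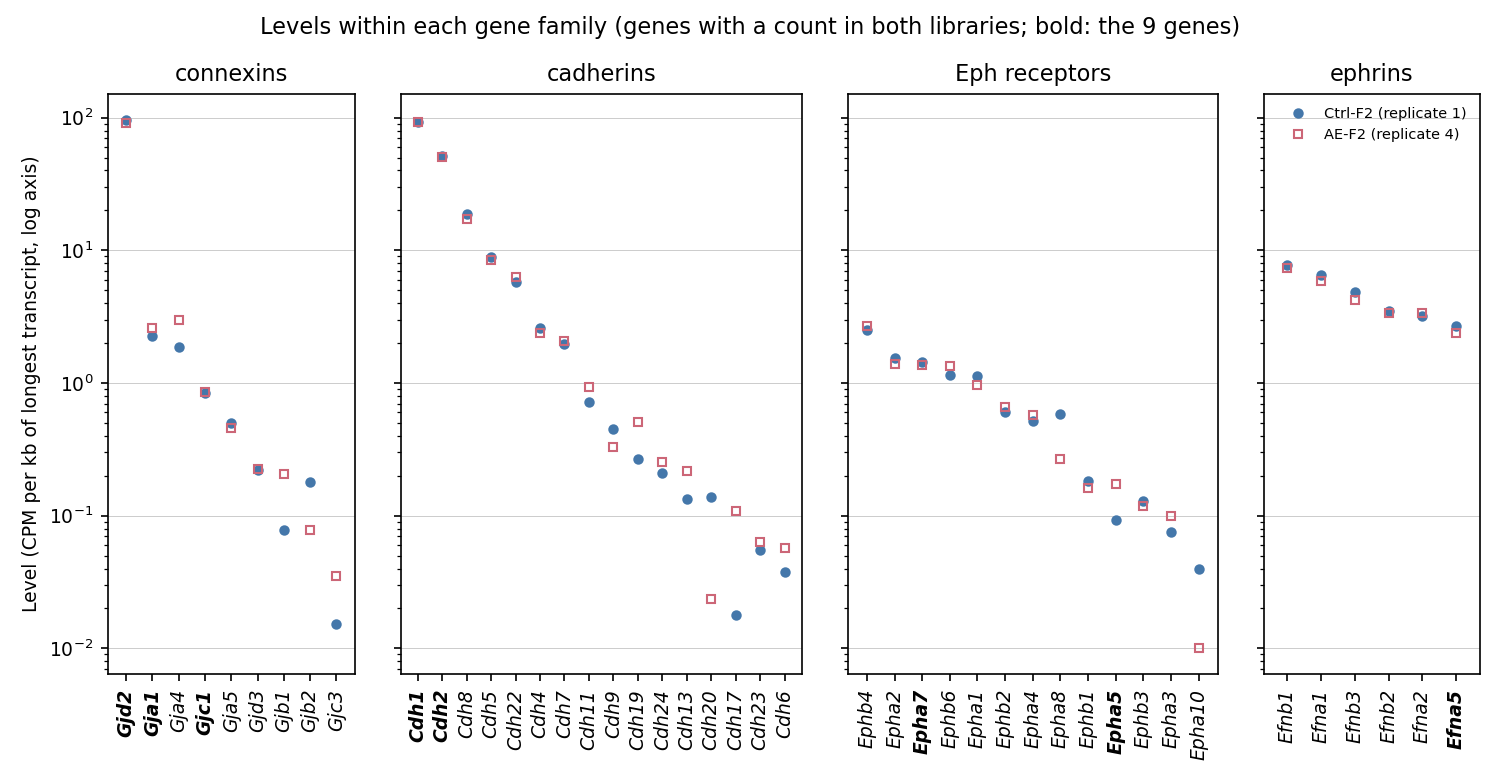
Level in CPM per kb of longest transcript (log axis) of each connexin, cadherin, Eph receptor and ephrin gene with a count in both libraries, Ctrl-F2 as filled circles and AE-F2 as open squares, with the 9 genes described in bold. Gjd2 stands apart from all other connexins and Cdh1 and Cdh2 lead the cadherins, while Epha5 lies near the bottom of the Eph receptors.

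Cdh1 encodes E-cadherin, the calcium-dependent adhesion protein of epithelia, which joins endocrine cells to each other (ENSMUSG00000000303, chr8:106603351-106670246, plus strand, 16 exons in the longest transcript). It was the most counted of the 9 genes. Cdh1 had 6745 counts in Ctrl-F2 and 8681 in AE-F2, or 414 CPM (404 to 424) and 408 CPM (399 to 417). Its log2 ratio was -0.02 (-0.06 to 0.03), so that the interval of the fold ran from 0.957 to 1.02.

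Cdh2 encodes N-cadherin, the cadherin of neurons, muscle and endocrine cells (ENSMUSG00000024304, chr18:16588877-16809246, minus strand, 16 exons in the longest transcript). Cdh2 had 4032 counts in Ctrl-F2 and 5207 in AE-F2, or 248 CPM (240 to 255) and 245 CPM (238 to 251). Both cadherins stood at nearly the same level in both libraries, and the log2 ratio of Cdh2 was -0.01 (-0.07 to 0.05). Per kb, Cdh1 exceeded Cdh2 by 1.83 times (1.76 to 1.90) in Ctrl-F2 and 1.82 times (1.76 to 1.89) in AE-F2.

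These cadherins made up most of their family. Of the summed CPM per kb of 23 cadherin genes, Cdh1 gave 50.7% in both libraries and Cdh2 27.7% in Ctrl-F2 and 27.8% in AE-F2. Cdh8, a neuronal type II cadherin, came next with 1399 and 1681 counts and a log2 ratio of -0.12 (-0.22 to -0.01). Cdh5, the VE-cadherin gene of endothelium, had 577 and 713 counts, and Cdh22 had 348 and 498. Cdh4, the R-cadherin gene, had 271 and 325 counts, and all 3 of these intervals included equality. Of the 13 cadherins compared, 2 were at least 1.5-fold higher, 0 were lower by that much, and the median log2 ratio was 0.07. Among all genes compared, 6.04% were higher and 2.19% lower by that much. Both of the 2 averaged 10 to under 100 counts, where 23.5% of genes were at least 1.5-fold higher. The 2 were chosen for mention after their values were seen. Cdh19, a Schwann cell cadherin, had 17 and 42 counts and a log2 ratio of 0.90 (0.08 to 1.83), and Cdh13, the T-cadherin gene, had 10 and 21 and a ratio of 0.65 (-0.46 to 1.94). Over 8 compared Schwann cell and nerve genes, which include Cdh19, the median was 0.41, and their part in the Cdh19 value was not tested.

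Catenins and other partners tie cadherins to actin. Ctnnb1, the β-catenin gene, stood at 116 CPM per kb in Ctrl-F2 and 113 CPM per kb in AE-F2, and the per-kb level of Cdh1 was 0.803 times (0.776 to 0.830) and 0.814 times (0.790 to 0.839) that of Ctnnb1. Ctnna1, for α-catenin, had 2431 and 3131 counts, Jup, for plakoglobin, 1669 and 2290, and Ctnnd1, for p120-catenin, 3127 and 4140. Their intervals of the ratio, and that of Ctnnb1, included equality. Of 12 compared catenin and nectin genes none was past 1.5-fold. Beside 13.4% of all genes compared each way, 1 interval lay below equality and 0 above. That 1 was Afdn, for the nectin-binding scaffold afadin, with 1663 and 1821 counts and a log2 ratio of -0.25 (-0.35 to -0.15), chosen for mention after its value was seen.

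At the tight junctions, which sit beside the cadherin belt, 0 of 8 compared genes were past 1.5-fold. Tjp1, for the scaffold ZO-1 that also binds connexins, had 3263 and 3886 counts and a log2 ratio of -0.13 (-0.20 to -0.06). The intervals of F11r, for the adhesion molecule JAM-A (883 and 1178 counts), and Cgn, for the junction protein cingulin (1251 and 1565 counts), included equality.

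Ncam1 encodes the neural cell adhesion molecule, an immunoglobulin-type protein of neurons and neuroendocrine cells known for its part in the sorting of endocrine cell types within the islet (ENSMUSG00000039542, chr9:49502136-49798925, minus strand, 7 annotated transcripts). Ncam1 had 1157 counts in Ctrl-F2 and 1505 in AE-F2, or 71.0 CPM (67.0 to 75.3) and 70.7 CPM (67.2 to 74.4). The CPM intervals overlapped almost wholly, and the log2 ratio was -0.00 (-0.11 to 0.11). Its exons share 417 bases with Gm11149 on the other strand, and the 2 exons of Gjd2 share 18 and 57 bases with transcripts named A530058N18Rik. Reads there cannot be told apart, because the library kit was not stated to keep strand, and these overlapping genes were not used here.

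Among 12 immunoglobulin adhesion genes, Ncam1 gave 15.2% of the summed CPM per kb in Ctrl-F2 and 15.8% in AE-F2. Alcam and Nfasc stood above it in both libraries. Alcam had 2040 and 2493 counts and a log2 ratio of -0.09 (-0.18 to -0.01), and Mcam, of vessel walls, 542 and 586 counts and a ratio of -0.27 (-0.44 to -0.10). Nfasc, of nerve, had 2185 and 2842 counts and a ratio of -0.00 (-0.08 to 0.08). Cadm4 had 168 and 269 counts and a ratio of 0.30 (0.01 to 0.58). Of the 11 genes compared in this family, 1 was at least 1.5-fold higher and 0 lower by that much, beside 6.04% and 2.19% of all genes compared. In the family 2 intervals lay above equality and 3 below, beside 13.4% each way among all genes, and the median log2 ratio was -0.00. Polysialic acid, the sugar that loosens adhesion by NCAM, is made by the enzymes of St8sia2 and St8sia4, which had 29 and 44 counts and 87 and 129 counts, with both intervals including equality.

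Epha5 encodes an EphA receptor tyrosine kinase best known from axon guidance and reported on β-cells (ENSMUSG00000029245, chr5:84054761-84417382, minus strand, 11 annotated transcripts). It was the scarcest of the 9 genes. Epha5 had 11 counts in Ctrl-F2 and 27 in AE-F2, or 0.675 CPM (0.337 to 1.21) and 1.27 CPM (0.836 to 1.85). Its AE-F2 level was higher but the intervals overlapped, and the log2 ratio was 0.88 (-0.14 to 2.07), a fold of 1.84 (0.904 to 4.21). So few counts fixed neither the size nor the direction of the difference. Among the 3087 genes averaging 10 to under 100 counts, 23.5% were at least 1.5-fold higher in AE-F2 and 7.55% at least 1.5-fold lower, and their median log2 ratio was 0.15. Of the 2 genes described here in that range, 1, Epha5, was past 1.5-fold, and Gjc1 was not. For scale, 3 counts corresponded to 0.184 CPM in Ctrl-F2 and 0.141 CPM in AE-F2.

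Epha7 encodes a related receptor of axon guidance (ENSMUSG00000028289, chr4:28813131-28967499, plus strand, 8 annotated transcripts). Epha7 had 157 counts in Ctrl-F2 and 196 in AE-F2, or 9.64 CPM (8.19 to 11.3) and 9.21 CPM (7.97 to 10.6). The intervals overlapped almost wholly, and the log2 ratio was -0.06 (-0.37 to 0.25). Per kb, Epha7 exceeded Epha5 by 15.5 times (8.43 to 31.7) in Ctrl-F2 and 7.89 times (5.26 to 12.3) in AE-F2.

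Efna5 encodes ephrin-A5, a lipid-anchored ligand of EphA receptors that pairs with EphA5 between β-cells (ENSMUSG00000048915, chr17:62604184-62881317, minus strand, 2 annotated transcripts). Efna5 had 178 counts in Ctrl-F2 and 204 in AE-F2, or 10.9 CPM (9.38 to 12.7) and 9.59 CPM (8.32 to 11). Its AE-F2 level was the lower, within overlapping intervals, at a log2 ratio of -0.19 (-0.48 to 0.11). Gja1, Epha7 and Efna5 had a mean of 100 to under 1000 counts, where 10.2% of 7069 genes had intervals above equality and 11.7% below it, and 0 of these 3 genes had either. The ligand stood above both receptors per kb, by 29.4 times (16.0 to 60.0) over Epha5 and 1.90 times (1.52 to 2.37) over Epha7 in Ctrl-F2, and by 13.7 times (9.16 to 21.3) and 1.74 times (1.42 to 2.13) in AE-F2. The intervals of each of these ratios overlapped between the libraries.

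In their families, by level per kb, Epha7 was the third Eph receptor and Efna5 the last of the 6 ephrins compared. By counts without division by length, Epha7 stood above Epha2 and Efna5 above Efna2 in both libraries. Epha7 gave 14.3% of the summed CPM per kb of 14 Eph receptor genes in Ctrl-F2 and 13.9% in AE-F2, and Epha5 0.923% and 1.77%. Per kb, Ephb4, of vessel walls, led with 176 and 247 counts, followed by Epha2, of epithelia, with 99 and 116. Ephb6 had 71 and 108 counts and Epha1 60 and 67, and all 4 intervals included equality. Epha8, chosen for mention after its values were seen, had 45 counts in Ctrl-F2 and 27 in AE-F2 and a log2 ratio of -1.11 (-1.86 to -0.40), the only Eph receptor at least 1.5-fold lower and the only one with an interval off equality. Epha5 and Epha8 thus had equal counts in AE-F2 and unequal ones in Ctrl-F2. Epha8 averaged 10 to under 100 counts, where 7.55% of all genes were at least 1.5-fold lower. Of 11 Eph receptors compared, the median log2 ratio was -0.06, and Epha6 was at 0 in both libraries.

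Efna5 gave 9.52% of the summed CPM per kb of 8 ephrin genes in Ctrl-F2 and 8.91% in AE-F2. Per kb, Efnb1 led with 411 and 512 counts, followed in Ctrl-F2 by Efna1 with 172 and 205, Efnb3 with 250 and 287 and Efnb2 with 272 and 341. In AE-F2, Efna2 at 3.40 CPM per kb stood just above Efnb2 at 3.34 CPM per kb. None of the 6 ephrins compared was past 1.5-fold or had an interval off equality, their median log2 ratio was -0.10, and Efna3 was at 0 in both libraries. Summed by class, the 9 EphA genes gave 5.42 CPM per kb in Ctrl-F2 and 4.84 CPM per kb in AE-F2, and the 5 ephrin-A genes 12.4 and 11.7 CPM per kb. The 5 EphB genes gave 4.57 and 4.96 CPM per kb and the 3 ephrin-B genes 16.1 and 15.0 CPM per kb. Ligands exceeded receptors in both classes and libraries, and the log2 ratio of the summed counts was -0.12 (-0.30 to 0.07) for EphA, -0.09 (-0.27 to 0.09) for ephrin-A, 0.12 (-0.07 to 0.31) for EphB and -0.09 (-0.22 to 0.03) for ephrin-B.

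Below the Eph receptors lie relays such as the small GTPases that rebuild actin. Of 13 such genes 0 were past 1.5-fold, and the median log2 ratio was 0.04. Intervals lay above equality for 1 and below it for 1, beside 13.4% of all genes compared each way. Cdc42 had 3414 and 4587 counts and Rhoa 4196 and 5637, both with intervals that included equality. Rac1, a GTPase activated downstream of ephrin-A5, had 2835 and 3893 counts and a log2 ratio of 0.08 (0.01 to 0.15), the only one of the 13 with an interval above equality. Rasa1, a GTPase-activating protein, had 1023 and 1363 counts. The 1 gene with an interval below equality was Nck2, for an adaptor, chosen for mention after its value was seen, with 518 and 580 counts and a log2 ratio of -0.22 (-0.39 to -0.05).

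**Figure D4:**
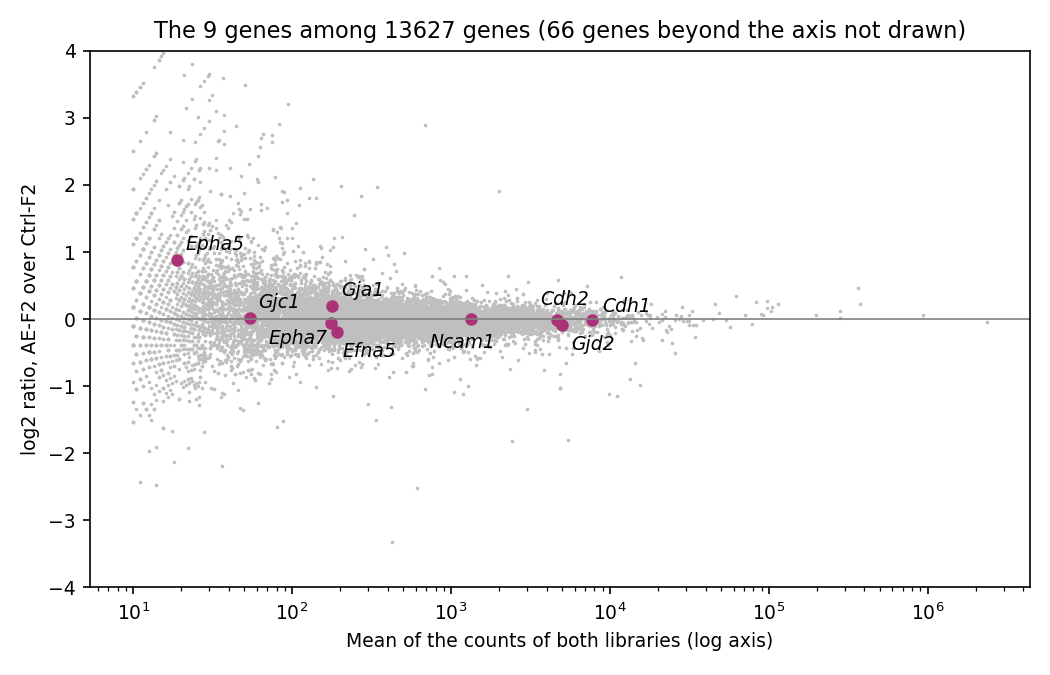
The log2 ratio of AE-F2 over Ctrl-F2 against the mean count of both libraries (log axis) for the 13627 genes compared (grey), with the 9 genes in purple and 66 genes beyond 4 either way not drawn. The spread of the grey points narrows from left to right, and the 9 genes lie within it at their own counts, Epha5 far left and high and Cdh1 far right near 0.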

How the data were processed

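Islet RNA was enriched with oligo(dT) and made into libraries with a NEBNext Ultra kit. What the authors deposited for each library is a list of estimated counts by Ensembl gene, scaled for neither depth nor length, in which 8.31% of the Ctrl-F2 and 9.02% of the AE-F2 values differed from a whole number by more than 0.01, while those of the 9 genes were whole. The submitters' processing notes name Bowtie2, RSEM and DESeq2 with no versions and the study's methods name HISAT2 for alignment. The genome build and annotation of these counts are not given in the sources used here, and 21806 of 21899 identifiers matched GENCODE M21 (GRCm38), from which symbols, positions and transcript lengths were taken. The files held no column that was left out of use.

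Counts were rounded. The TMM factors came from edgeR 4.0.16 in R 4.3.3, over the 13627 genes averaging 10 counts or more, with intervals from scipy 1.17.1. The intervals and the 1.5-fold call were checked on simulated libraries with known changes and counting error only. That check cannot speak to the TMM scaling, PCR copies or the spread between animals. No model could be fitted to a single library on each side. Other scalings (median-of-ratios from DESeq2 1.42.0, upper quartile, library totals with and without the 10 most abundant genes), minimum means of 1 and 50 counts, unrounded counts, a pseudocount of 5, folds of 1.2 and 2 and other gene lengths were tried, and scaling to β-cell markers was added after seeing the data. The 9 genes and all gene lists were chosen with earlier results of these data known. Named besides the 9 genes were the 4 or fewer most abundant genes per kb of each family or partner list, any gene of those lists past 1.5-fold and averaging 100 counts or more, and the first 2 genes of a cell type list. Others, among them Cr2, Iapp and the β-cell scaling markers, were named after their values were seen. One gene covered by the rule is not reported here. Promoter windows came from RefSeq (GRCm38.p6).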

Additional observations from a re-analysis of the deposited data

How the results depend on the processing

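No paired analysis was possible, because the labels give no pairing between the groups and only Ctrl-F2 replicate 1 and AE-F2 replicate 4 were analysed here. No replicate could be left out with 1 library per group. Under the other planned scalings, minimum means, rounding and pseudocount, the log2 ratio stayed within -0.09 to -0.07 for Gjd2, 0.18 to 0.21 for Gja1, -0.02 to 0.03 for Gjc1, -0.02 to -0.00 for Cdh1, -0.02 to 0.00 for Cdh2, -0.01 to 0.01 for Ncam1, 0.62 to 0.89 for Epha5, -0.07 to -0.05 for Epha7 and -0.19 to -0.17 for Efna5. The number of the 9 genes at least 1.5-fold higher was 0 when a mean of 50 counts was required, which leaves Epha5 out of the comparison, and 0 at a fold of 2.

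Scaling to the 7 β-cell markers, added after seeing the data, raised the median log2 ratio of all genes compared to 0.12. Under it the log2 ratio of Gjd2 turned to 0.037, and 4 of the 9 intervals lay above equality (Gja1 at 0.32, Cdh1 at 0.10, Cdh2 at 0.11 and Ncam1 at 0.12) and 0 below, beside 33.5% of all genes compared above and 4.08% below. By construction every ratio moves by the same amount in this setting. Under TMM, the sum of all 10 β-cell markers, most of it from Ins1 and Ins2, had a log2 ratio of 0.00, and the median over the 10 was -0.10. These changes therefore depend on which markers are taken and how they are combined.

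Shares within a family depended on the length used. With all exons of a gene joined, Gjd2 gave 95.9% of the connexins in Ctrl-F2 and 94.2% in AE-F2, Cdh1 gave 59.8% of the cadherins in both, and Epha7 gave 11.4% and 11.1% of the Eph receptors. Without division by length Cdh1 gave 49.3% and 49.4%, Epha7 19.3% and 18.5%, and Efna5 12.8% and 12% of the ephrins. Depth limited Epha5 most, then Gjc1.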
